A study of Solanum lycopersicum with 12 samples.

Results

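Tomato seedlings that had been given the synthetic compound iSB09 at 20 µM were set directly against seedlings given the plant hormone abscisic acid (ABA) at 10 µM. Each arm has 3 libraries, so the comparison uses 6 of the 12 samples of the series, and all genes with at least 10 counts in 3 of those 6 libraries were tested, 21127 of 34075 gene IDs. Both arms, and the mock arm used as a reference, are whole wild-type (WT) seedlings of Solanum lycopersicum that were moved at 3 days after germination into 3 ml of liquid Murashige and Skoog medium and held there for 8 days at 22 °C under 16 h of light and 8 h of darkness. The medium was then renewed with ABA, iSB09 or, for mock, 0.1% DMSO, and tissue was taken 3 h later. A solvent is recorded for mock alone, so a solvent difference cannot be told apart from treatment in any comparison with mock, and the dose of iSB09 is not the dose of ABA, so dose and compound cannot be told apart in the direct comparison. The series calls the 3 samples of an arm independent biological replicates without saying what was independent. The p-values measure the spread between those samples. The iCB samples are not analysed here.

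ABA is the hormone by which plants respond to drying soil and salt. In its core pathway, soluble receptors of the PYR/PYL/RCAR family bind ABA and then capture clade A PP2C phosphatases. That capture frees SnRK2 kinases, which switch on bZIP transcription factors of the AREB/ABF/ABI5 group and, through them, protective proteins such as dehydrins. Synthetic agonists such as iSB09 are made to occupy the same receptors, and the series asks whether iSB09 elicits ABA-responsive gene expression.

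The count table and the RefSeq gene table supplied with it do not pair these IDs with names: 0 RefSeq entries hold an ID of this kind, so no symbol and no sequence is given. Families below are 25 lists of 257 IDs written from general knowledge of published tomato gene families, of which 249 IDs were in the table and 225 were tested. No annotation was at hand to check who belongs to a family, so "listed" qualifies every family name. Each role given below belongs to the family.

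Libraries held 21863058 to 22098966 counts, of which at least 99.92% fell in the genes tested. On the first principal component of log2 CPM (a gene's counts per 1e6 counts of its library), with 58.6% of the variance, mock ranged from -59.3 to -47.1, iSB09 from -5.8 to 7.5 and ABA from 49.4 to 54.1. On the second, with 12.1%, iSB09 replicate 2 stood apart at 45, against -4.4 and -4.2 for the other iSB09 libraries. Mock was spread on it as well, at 19.8, -7.4 and -28.5 in replicates 1 to 3, while ABA ranged from -9.4 to -4.9.

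Relative to ABA, iSB09 left 880 genes lower and 375 higher at an adjusted p under 0.05, which is 4.17% and 1.77% of the genes tested. The genes lower in iSB09 had a median log2 fold change of -0.91 against ABA, with 395 at least 2-fold lower. For the genes higher in iSB09 the median was 1.03, with 194 at least 2-fold higher. The lower genes took 4.01% to 4.79% of all counts in ABA libraries, 2.39% to 2.53% in iSB09 and 1.7% to 1.84% in mock. The higher genes took 0.493% to 0.517% in ABA, 0.793% to 0.975% in iSB09 and 1.27% to 1.38% in mock. In bulk tissue, fewer cells of a type and less RNA per cell cannot be told apart, here or below.

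Set beside mock, the 880 genes lower in iSB09 had a median log2 fold change of 1.44 in ABA and 0.48 in iSB09. The 375 higher genes had -1.61 in ABA and -0.55 in iSB09. These comparisons share the ABA or the iSB09 libraries with the direct one, so the values are given side by side and are not independent of it. By expression level, genes averaging 10 to 100 CPM over the 9 libraries were lower in 4.68% of cases, genes at 1 to 10 CPM in 3.86%, genes over 100 CPM in 3.19% and genes under 1 CPM in 3.11%. The chromosome prefix of the ID gave a range of lower genes from 3.22% for chromosome 10 to 6.01% for chromosome 6. Prefix 00, with 5 genes tested and 0 lower, is left out of that range. These shares over levels and prefixes are descriptions without a test.

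The counts fell when any single ABA library, or iSB09 replicate 1 or 3, was left out. Without ABA replicate 1 there were 498 lower and 213 higher genes, and without ABA replicate 2 there were 512 and 179. Without ABA replicate 3 there were 622 lower and 209 higher genes, without iSB09 replicate 1 there were 682 and 223, and without iSB09 replicate 3 there were 633 and 268. Without iSB09 replicate 2, the library that stood apart, 797 genes were lower and 386 higher.

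**Figure D1:**
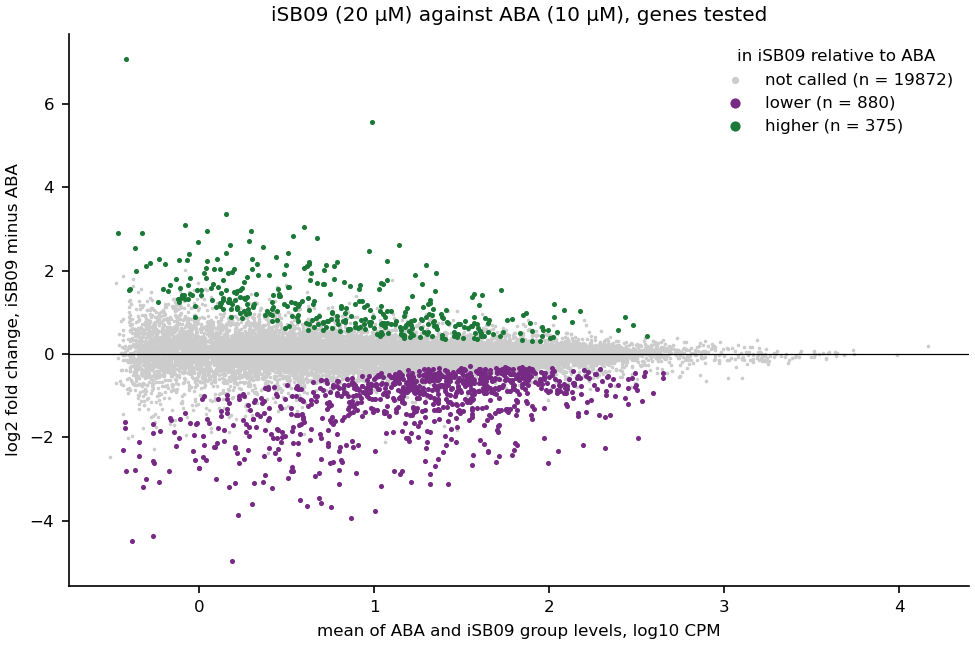
Each point is 1 of the 21127 genes tested, placed by the mean of the ABA and iSB09 group levels (log10 CPM, x axis) and by the log2 fold change of iSB09 minus ABA (y axis). Purple points (880) are lower in iSB09, green points (375) are higher, and grey points were not called at an adjusted p under 0.05.

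Whether iSB09 stopped part of the way or went past both other arms was tested gene by gene. A gene was called only if iSB09 differed from mock and from ABA, taking the larger of both p-values and adjusting over all genes. In 253 genes (1.2% of those tested) iSB09 lay above mock and below ABA, and in 88 genes (0.417%) it lay below mock and above ABA. Past both arms there were 0 genes above and 0 below by edgeR, and 0 by DESeq2 or limma voom. With both differences at p under 0.05 before adjustment, 60 genes were above both and 110 below both in edgeR, against 780 and 505 in the intermediate orders. Leaving out 1 library gave 37 to 136 such genes above both and 75 to 256 below both. Both maxima came without iSB09 replicate 1. This test needs a gene to differ from both arms, so a gene that it does not call is not shown to lack a difference.

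Among the 253 genes, the median log2 fold change against mock was 2.79 in ABA and 1.41 in iSB09. The iSB09 value was 0.539 of the ABA value at the median (quartiles 0.474 and 0.615). For the 88 genes the medians were -2.67 and -1.21, and the ratio was 0.472 (quartiles 0.413 and 0.533). Genes had to differ from both arms to enter, so the ratios describe those genes alone. The order counts moved with single libraries. The 253 became 162 without ABA replicate 1, 161 without iSB09 replicate 1 and 163 without iSB09 replicate 3. The 88 became 46 and 41 without mock replicates 1 and 2, 35, 42 and 40 without ABA replicates 1, 2 and 3, and 41 and 30 without iSB09 replicates 1 and 3.

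Of 225 list members tested, 22 were among the 253 genes (1.2% of all genes were) and 2 among the 88 (0.417%). The 22 comprise 7 of 10 PP2C phosphatases, 2 of 6 bZIP factors, 2 of 5 dehydrins or other LEA proteins, 2 of 6 NAC factors and 2 of 12 clock genes. A further 1 each came from ABA biosynthesis (4 tested), CYP707A hydroxylases (5), carotenoids (11), proline and galactinol (6), ethylene (17), Aux/IAA repressors (20) and heat shock (9). The 2 are a receptor (12 tested) and a gene of the root uptake list (5 tested).

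**Figure D2:**
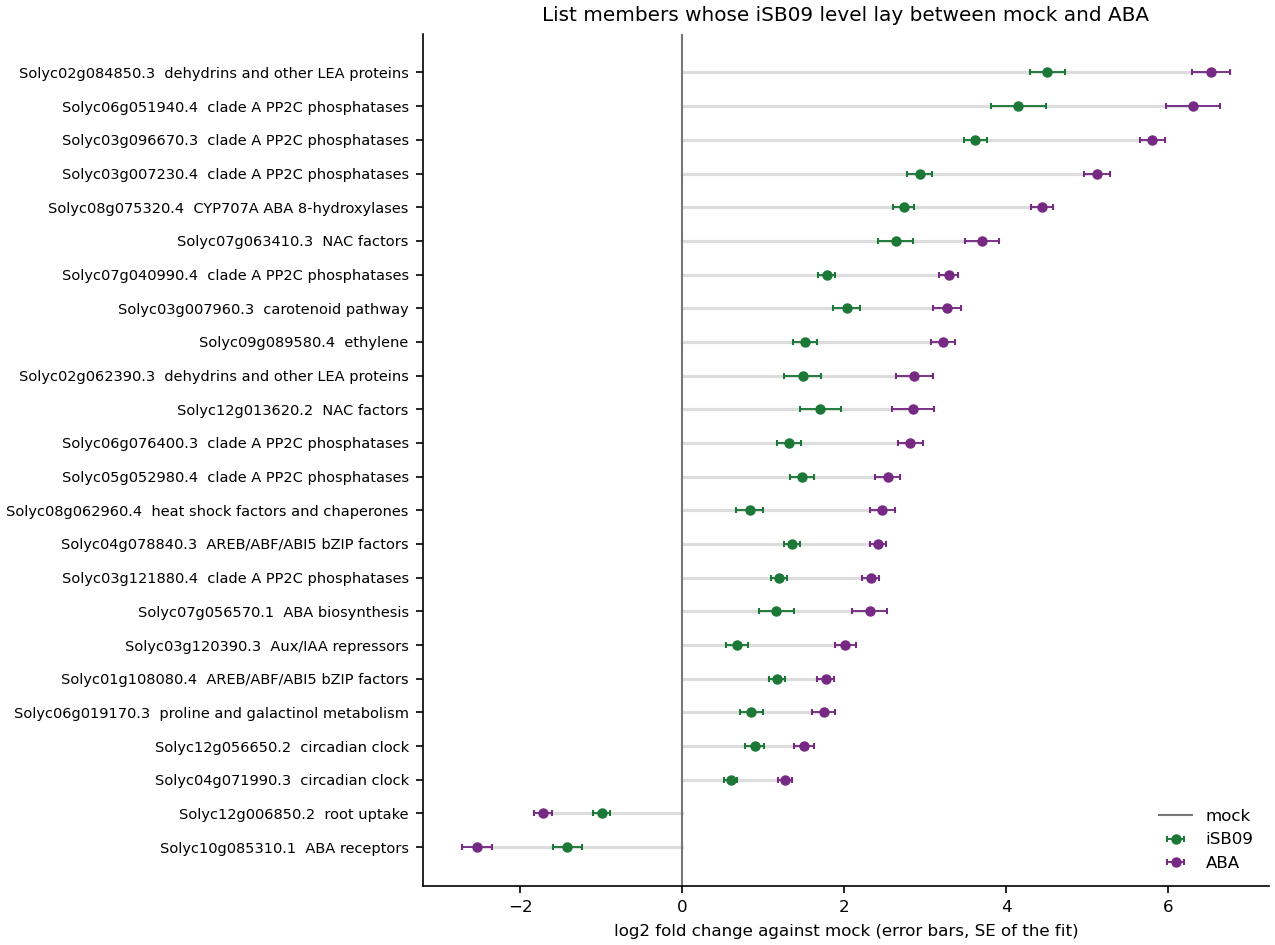
Log2 fold change against mock (x axis, grey line at mock) of the 24 list members whose iSB09 level passed the order test, in iSB09 (green) and ABA (purple), with bars for the standard error. In all 24 the iSB09 point lies between mock and ABA, as the test requires, from 6.53 in ABA and 4.51 in iSB09 for the dehydrin Solyc02g084850.3 down to -2.54 and -1.42 for the receptor Solyc10g085310.1.

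Receptor transcripts were higher in iSB09 than in ABA where they differed. Of 14 listed receptors 12 were tested, 4 were higher (1.77% of all genes were) and 0 lower (0 before adjustment at p under 0.05, 0 by DESeq2 and 0 by limma voom). The list's median log2 fold change was 0.26, against 0.01 over all genes tested. Over all genes, 23% had no overlap between the iSB09 and the ABA libraries, which is the background for each such statement below. Before adjustment, 1353 of all 21127 genes were higher and 2040 lower at p under 0.05. Those are the background for each unadjusted count here and below. Solyc10g085310.1 stood at 32, 30.8 and 33 CPM in mock replicates 1 to 3, at 6.44, 3.71 and 6.35 in ABA and at 13.9, 11.7 and 10.3 in iSB09. All 3 iSB09 libraries lay above all ABA and below all mock libraries, with a log2 fold change of 1.12 ± 0.19 (SE) against ABA (edgeR adjusted p = 0.00521; 0.0133 for the order). Solyc12g055990.2 held 11.5, 11.6 and 11.2 CPM in ABA and 19.5, 14.9 and 17 CPM in iSB09, higher by 0.58 ± 0.12 (adjusted p = 0.0174). Solyc03g007310.3 was at 27, 24.2 and 25 CPM in ABA and 36, 34 and 31.7 CPM in iSB09, higher by 0.42 ± 0.09 (adjusted p = 0.0229). In both of these genes the arms did not overlap.

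The fourth called receptor, Solyc06g050500.2, differed by 0.74 ± 0.19 (adjusted p = 0.0453). Solyc10g076410.1 had 2.8, 0.927 and 2.53 CPM in ABA and 4.92, 3.45 and 2.94 in iSB09 and did not pass (0.85 ± 0.32; adjusted p = 0.2). Other receptors had nearly level values in both arms: Solyc08g076960.1, which fell against mock in both, differed between the arms by -0.04, with a 95% interval of -0.33 to 0.24. For Solyc01g095700.3 the difference was 0.10 (interval -0.15 to 0.35). Solyc05g052420 and Solyc02g076770, with 156 and 4 counts over the 9 libraries, missed the count filter. Against mock, 7 receptors fell in ABA (9.64% of all genes did) and 6 in iSB09 (2.33%), and 0 rose in either. Only 1 receptor was called without ABA replicate 2, ABA replicate 3 or iSB09 replicate 1. Solyc12g055990.2 lost its call without any single ABA library or iSB09 replicate 1 (0.00145 to 0.0694 over all alternatives). Solyc03g007310.3 lost its call without ABA replicate 2 or 3 or iSB09 replicate 1 (0.00361 to 0.121). Solyc06g050500.2 lost its call with a replicate block (0.0682), with the 6 libraries alone (0.0711) and without any single library other than ABA replicate 1 (0.0519 to 0.13).

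Clade A phosphatases, which hold the pathway off, were lower in iSB09 than in ABA. Of 10 listed clade A PP2C genes 7 were lower in iSB09 (4.17% of all genes were) and 0 higher (0 before adjustment at p under 0.05, 0 by DESeq2 and 0 by limma voom). The list's median was -1.31 on the log2 scale. Leaving out any 1 library left the count at 7. Solyc03g096670.3 was at 4.7, 5.1 and 3.99 CPM in mock, 57.8, 58.6 and 52.7 in iSB09, and 288, 263 and 216 in ABA. The 3 arms are fully separate, and iSB09 was lower than ABA by a log2 fold change of -2.18 ± 0.13 (adjusted p = 1.72e-05). In Solyc03g007230.4 the levels were 2.92, 3.65 and 2.73 CPM in mock, 23.9, 23.3 and 23.6 in iSB09, and 126, 107 and 89.3 in ABA. Its iSB09 libraries were nearly identical, at 23.6 ± 0.316 CPM (SD, n = 3), and the difference from ABA was -2.19 ± 0.13 (adjusted p = 1.82e-05).

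Solyc07g040990.4 started from a higher base, 30.7, 34.4 and 29.4 CPM in mock, and reached 97.7, 116 and 111 CPM in iSB09 and 325, 315 and 283 CPM in ABA. Again no arm overlapped another, with -1.50 ± 0.11 for iSB09 against ABA (adjusted p = 3.12e-05). The other 4 lower phosphatases had differences from -2.15 (Solyc06g051940.4) to -1.06 (Solyc05g052980.4), and all 7 passed the intermediate order. The remaining 3 were not called. Solyc12g096020.3, which rose in ABA and was not called in iSB09 against mock, had -0.24 (95% interval -0.49 to 0.01), Solyc08g062640.3 had -0.13 (-0.46 to 0.20) and Solyc08g062650.2 had 0.13 (-0.13 to 0.38). Summed over the list, phosphatase transcripts came to 322.3 to 370.1 CPM in mock, 750.4 to 858.8 in iSB09 and 1752 to 2032 in ABA.

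**Figure D3:**
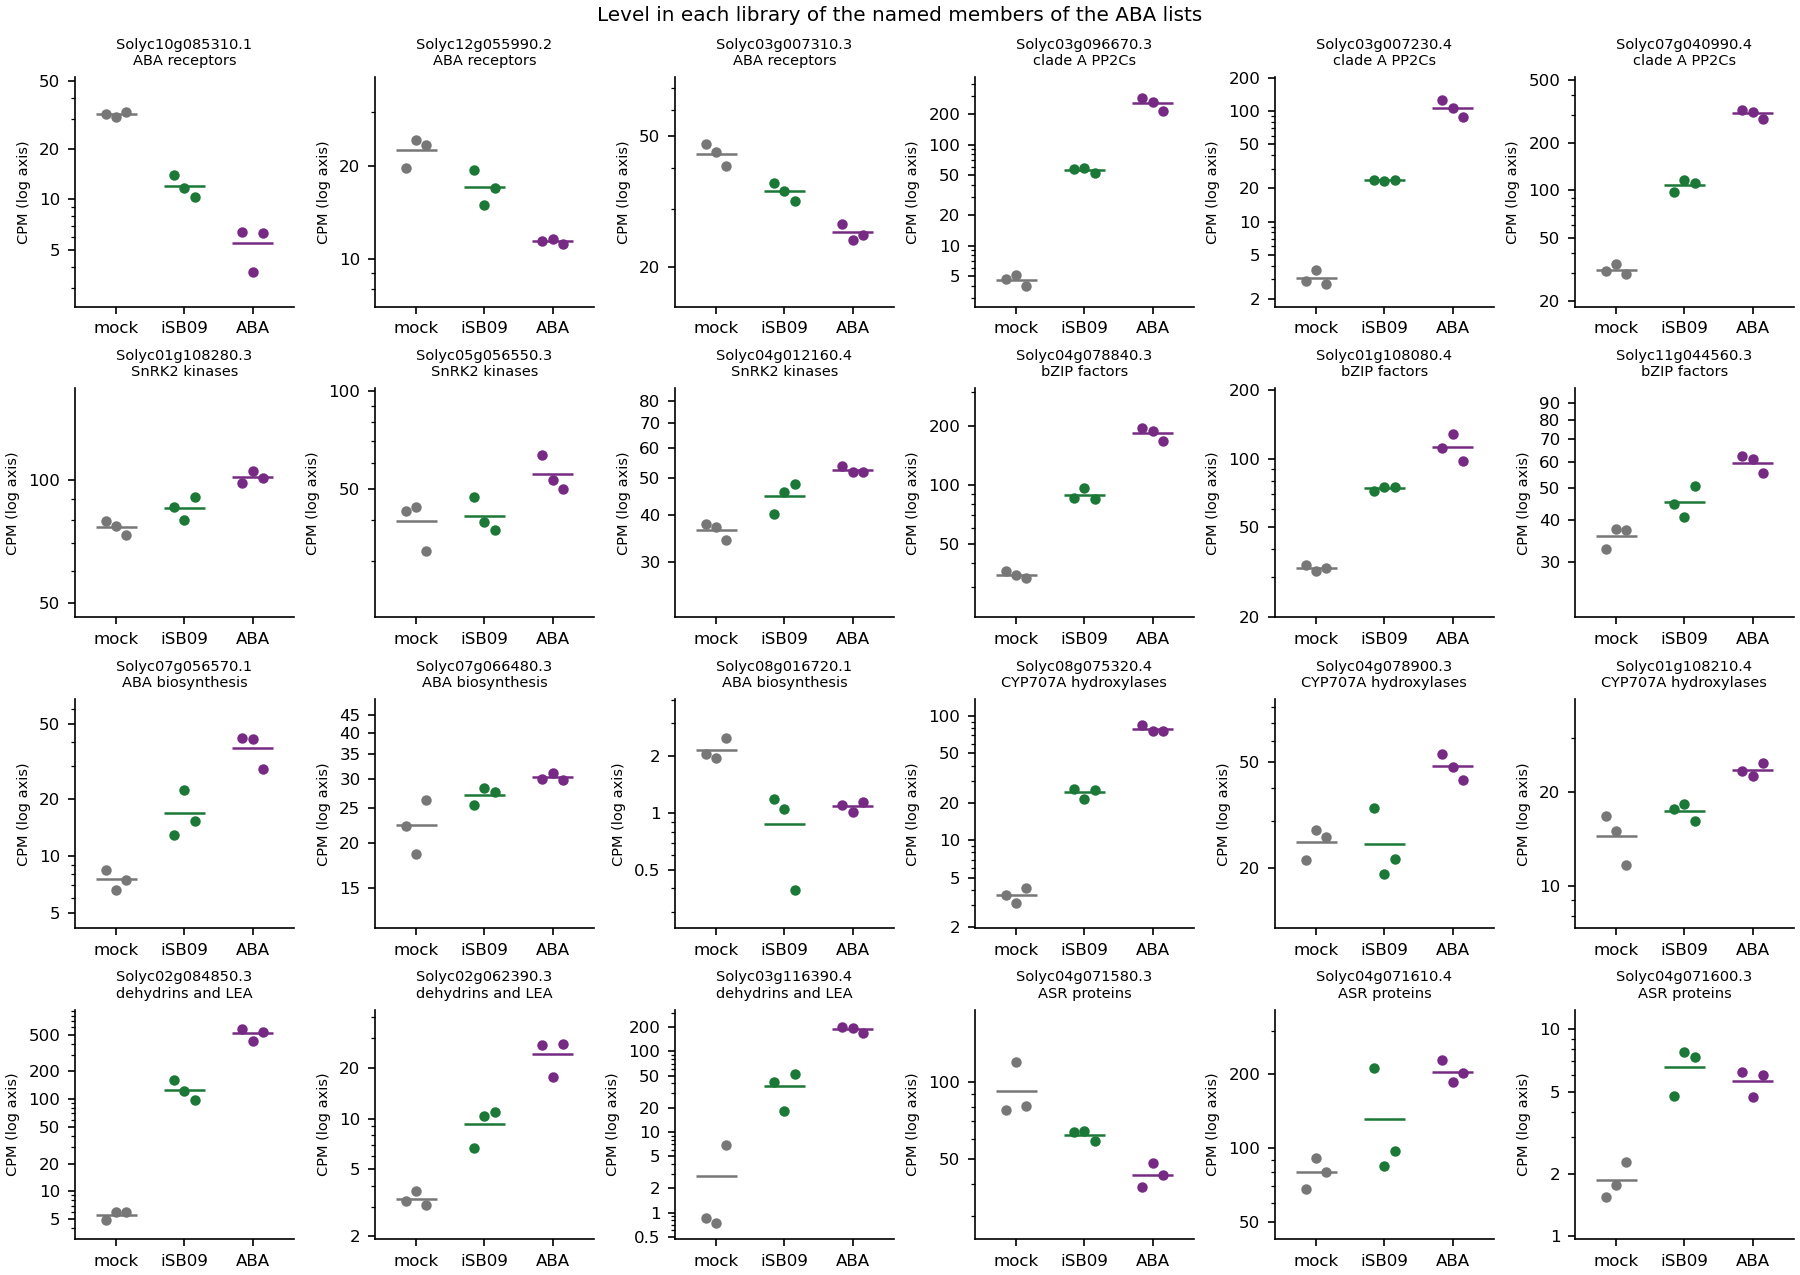
CPM in each library (log axis) of the 3 named members of each ABA list, with mock in grey, iSB09 in green and ABA in purple; points are replicates 1 to 3 from left to right and bars are means. The arms separate in the 3 phosphatases and the 3 bZIP factors shown, whereas arms overlap in the ASR genes Solyc04g071610.4 and Solyc04g071600.3.

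SnRK2 kinases, the step that the phosphatases restrain, gave no call in the direct comparison. Of 7 listed kinases 0 were called by edgeR, DESeq2 or limma voom, and the median was -0.20. Before adjustment, at p under 0.05, 3 were lower (2040 of all 21127 genes were) and 0 higher (1353 were). Solyc05g056550.3 had 63.7, 53.1 and 50.1 CPM in ABA against 47.1, 39.6 and 37.5 in iSB09, a difference of -0.43 (95% interval -0.74 to -0.11; adjusted p = 0.129). With a replicate block it passed (0.0425), within a range of 0.0425 to 0.409 over all alternatives. Solyc01g108280.3 had 98.6, 105 and 102 CPM against 86, 80.1 and 91 CPM, with -0.25 (-0.43 to -0.07; adjusted p = 0.129). Solyc04g012160.4 had 54, 51.8 and 52.1 CPM against 40.3, 46 and 48.2 CPM, with -0.23 (-0.43 to -0.04; adjusted p = 0.199). In all 3 genes the ABA libraries lay above the iSB09 libraries without overlap, at differences that the test across all genes did not call. Against mock, 3 kinases rose in ABA (9.74% of all genes did) and 0 in iSB09 (2.61%).

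The bZIP factors that the kinases activate were lower in iSB09 in 3 of 6 cases (4.17% of all genes were) and higher in 0 (0 before adjustment at p under 0.05, 0 by DESeq2 and 0 by limma voom). The list's median was -0.50. Solyc04g078840.3 was at 36.3, 34.3 and 33.5 CPM in mock, 85.6, 96.3 and 84.7 in iSB09 and 196, 190.0 and 168 in ABA. Its arms were separate, with -1.06 ± 0.09 against ABA (adjusted p = 0.000139). Solyc01g108080.4 reached 71.6, 75 and 75.2 CPM in iSB09 and 111, 128 and 98 in ABA from 31.8 to 34 in mock, a difference of -0.60 ± 0.10 (adjusted p = 0.00454). For Solyc11g044560.3 the difference was -0.39 ± 0.10 (adjusted p = 0.0471), and this call was lost in 10 of 17 alternatives (0.0152 to 0.171), among them library totals, the replicate block, the 6 libraries alone, and the omission of mock replicate 2 or 3, any ABA replicate, or iSB09 replicate 1 or 2. Solyc09g009490.4, at about 2 CPM in ABA, had -0.83 (95% interval -1.53 to -0.13) and did not pass (adjusted p = 0.2).

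Genes that make and remove ABA were also read. Of 5 listed biosynthesis genes 4 were tested, 1 was lower in iSB09 (4.17% of all genes were) and 0 were higher (0 before adjustment at p under 0.05, 0 by DESeq2 and 0 by limma voom). Solyc07g056570.1 was at 8.48, 6.64 and 7.45 CPM in mock, 12.9, 22.3 and 15.4 in iSB09 and 42.2, 41.4 and 28.7 in ABA. The iSB09 libraries lay between the other arms, lower than ABA by -1.16 ± 0.20 on the log2 scale (adjusted p = 0.00675; 0.0227 for the order). Solyc08g016720.1 fell against mock in both arms and had 1.11, 1.02 and 1.15 CPM in ABA and 1.2, 1.06 and 0.394 in iSB09, a difference of -0.31 (95% interval -1.07 to 0.45). Its sign turned without iSB09 replicate 3 (0.046). Solyc07g066480.3 had -0.16 (-0.42 to 0.10), and Solyc02g090890.4 had 0.07 (-0.44 to 0.58) with iSB09 libraries at 604, 1049.8 and 662 CPM. Solyc05g053530, with 29 counts in all, was not tested.

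Of 5 listed CYP707A hydroxylases, which break ABA down, 2 were lower in iSB09 (4.17% of all genes were) and 0 higher (0 before adjustment at p under 0.05, 0 by DESeq2 and 0 by limma voom). Solyc08g075320.4 was at 3.65, 3.14 and 4.16 CPM in mock, 26.1, 21.4 and 25.5 in iSB09 and 85.4, 76.5 and 76.1 in ABA, with -1.70 ± 0.11 against ABA (adjusted p = 1.82e-05). Solyc04g078900.3 had another pattern: 21.4, 27.7 and 26.1 CPM in mock, 33.6, 19.1 and 21.6 in iSB09 and 53.6, 48 and 42.7 in ABA. It rose in ABA by 0.94 ± 0.19, its iSB09 libraries spanned the mock values (-0.02 against mock), and iSB09 was lower than ABA by -0.96 ± 0.19 (adjusted p = 0.0128). That call ended without ABA replicate 1 or iSB09 replicate 3 (9.64e-05 to 0.0601 over all alternatives), leaving 1 called hydroxylase. Solyc01g108210.4 had -0.44 ± 0.13 and did not pass (adjusted p = 0.0754), but passed with DESeq2, with the 6 libraries alone and without mock replicate 3 (0.0243 to 0.235). Upstream, 1 of 11 carotenoid pathway genes was lower (4.17% of all genes were) and 0 higher (0 before adjustment at p under 0.05, 0 by DESeq2 and 0 by limma voom): Solyc03g007960.3, at 92, 89.2 and 84.8 CPM in ABA, 27.9, 47.2 and 37.6 in iSB09 and 8.48 to 10.1 in mock, with -1.24 ± 0.16 against ABA (adjusted p = 0.000921).

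Dehydrins and other LEA proteins, which accumulate in drying tissue and seeds, were lower in iSB09 in 3 of 5 tested cases (4.17% of all genes were) and higher in 0 (0 before adjustment at p under 0.05, 0 by DESeq2 and 0 by limma voom). The median was -1.38. Solyc02g084850.3 climbed from 4.83, 5.99 and 5.94 CPM in mock to 163, 121 and 97.3 in iSB09 and 579, 428 and 541 in ABA. The arms were separate, and iSB09 was lower than ABA by -2.02 ± 0.19 (adjusted p = 0.000156). Solyc02g062390.3 had 6.74, 10.3 and 11 CPM in iSB09 and 27.5, 17.7 and 27.6 in ABA, with -1.38 ± 0.21 (adjusted p = 0.00268). Solyc03g116390.4 had 41.9, 17.9 and 52.3 CPM in iSB09 and 202, 193 and 168 in ABA. Its difference of -2.33 ± 0.54 (adjusted p = 0.0273) was lost with DESeq2 and without any single ABA or iSB09 library other than iSB09 replicate 3 (0.00127 to 0.104). The mock libraries of that gene were at 0.866, 0.749 and 6.98 CPM.

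The dehydrin Solyc04g082200.2 had 759, 589 and 632 CPM in ABA and 509, 368 and 476 in iSB09, with -0.55 (95% interval -0.89 to -0.21) at an adjusted p of 0.0661 by edgeR and 0.00788 by DESeq2. Solyc02g084840.3 had 0.10 (-0.46 to 0.67). Of 5 listed ASR genes, small stress-responsive proteins linked to ABA and ripening, 3 were tested and 0 were called in either direction (before adjustment 1 was higher and 1 lower at p under 0.05; 1 was higher by DESeq2 and 0 by limma voom). Solyc04g071610.4 showed 1 iSB09 library at the ABA level: 212 CPM in replicate 1 against 84.9 and 97.5 in replicates 2 and 3, with ABA at 227, 185 and 202. Its difference was -0.64 (-1.26 to -0.01; adjusted p = 0.301) and became -1.16 without iSB09 replicate 1 (0.00247; range 0.00247 to 0.603). Solyc04g071580.3, which fell in ABA, had 38.8, 48 and 43.2 CPM in ABA and 63.4, 64.3 and 58.5 in iSB09. Its difference of 0.52 ± 0.16 missed the threshold (adjusted p = 0.0898) but passed with DESeq2, library totals, the replicate block, the 6 libraries alone and without mock replicate 2 (0.0118 to 0.292). Solyc04g071600.3 had 4.74, 7.72 and 7.32 CPM in iSB09 and 6.18, 4.73 and 6.02 in ABA, with 0.22 (-0.25 to 0.69). It rose against mock by 1.58 in ABA and 1.81 in iSB09.

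Transcription factors and osmolyte genes outside the core pathway differed in part. Of 6 tested NAC factors 2 were lower in iSB09 (4.17% of all genes were) and 0 higher (1 before adjustment at p under 0.05, 0 by DESeq2 and 0 by limma voom). Solyc07g063410.3 was at 2.1, 2.76 and 2.34 CPM in mock, 11.8, 17.4 and 15.5 in iSB09 and 37.2, 32.4 and 23.9 in ABA, with -1.07 ± 0.18 against ABA (adjusted p = 0.00517). Solyc12g013620.2 had 37.6, 39.1 and 45.7 CPM in iSB09 and 105, 86.2 and 78.8 in ABA, with -1.14 ± 0.24 (adjusted p = 0.0169), a call lost without ABA replicate 1 or 2 or iSB09 replicate 1 (0.000166 to 0.0764), leaving 1 NAC factor. In both the iSB09 and ABA libraries stayed apart. Of 6 proline and galactinol genes, which serve osmolyte synthesis and breakdown, 2 were lower (against the same 4.17%) and 0 higher (1 before adjustment at p under 0.05, 0 by DESeq2 and 0 by limma voom). Solyc06g019170.3 had 171, 131 and 143 CPM in iSB09 and 245, 331 and 251 in ABA, with -0.90 ± 0.14 (adjusted p = 0.00322). Solyc01g079170.3 had 18.3, 9.21 and 12.4 CPM in iSB09, within a mock range of 7.89 to 13.9 but for replicate 1, and 36.5, 34.8 and 29.9 in ABA, with -1.34 ± 0.24 (adjusted p = 0.00758). The 3 listed CBF cold-response factors had 55, 2 and 3 counts over all 9 libraries and were not tested. Of 3 stomatal and reactive-oxygen genes 0 were called (0 before adjustment at p under 0.05, 0 by DESeq2 and 0 by limma voom).

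Of 12 clock genes 3 were lower in iSB09 (4.17% of all genes were) and 0 higher (0 before adjustment at p under 0.05, 0 by DESeq2 and 0 by limma voom). Solyc04g071990.3 was at 39.9, 34.7 and 37.2 CPM in mock, 55, 58.4 and 55.3 in iSB09 and 88.6, 91.5 and 88.8 in ABA, with tight replicates and -0.67 ± 0.08 against ABA (adjusted p = 0.000657). Solyc12g056650.2 had 152, 213 and 182 CPM in iSB09 and 285, 282 and 268 in ABA, with -0.61 ± 0.12 (adjusted p = 0.0111; 0.051 without ABA replicate 2, in a range of 5.82e-05 to 0.051). The third, Solyc03g115770.3, had -0.76 ± 0.17 (adjusted p = 0.0229) and lost its call without ABA replicate 2 or 3 or iSB09 replicate 1 or 2 (0.078, 0.0968, 0.074 and 0.056), so that 1 clock gene was called without ABA replicate 2.

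Heat shock factors and chaperones, which guard proteins against unfolding, were lower in iSB09 in 5 of 9 tested cases (4.17% of all genes were) and higher in 0 (1 before adjustment at p under 0.05, 0 by DESeq2 and 0 by limma voom), with a median of -0.89. Solyc08g062960.4 had 8.66, 8.62 and 8.55 CPM in ABA, 3.15, 2.49 and 2.63 in iSB09 and 1.41, 1.59 and 1.65 in mock, with -1.64 ± 0.15 against ABA (adjusted p = 0.000143). Solyc06g076570.4 had 34, 25.7 and 35.5 CPM in ABA and 18.4, 14.9 and 11.1 in iSB09, the latter across the mock range of 10.7 to 16.5, with -1.10 ± 0.20 (adjusted p = 0.00884). Both of these calls held in all 17 alternatives. The other 3 had adjusted p of 0.0356 to 0.048, and the count was 2 without ABA replicate 1 or 3, iSB09 replicate 2 or 3 or with a replicate block, and 3 without ABA replicate 2. Without iSB09 replicate 1, it was 7.

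Genes of other hormones are given beside the 5.94% of all genes called in either direction, and nothing particular to them is read from their counts. Of 17 tested ethylene genes 1 was lower and 0 higher (1 before adjustment at p under 0.05, 1 by DESeq2 and 0 by limma voom). That gene, Solyc09g089580.4, was at 5.34, 7.02 and 8.62 CPM in mock, 19.3, 21.6 and 18.9 in iSB09 and 68.6, 64.5 and 61.9 in ABA, with -1.71 ± 0.14 (adjusted p = 8.12e-05). Aux/IAA repressors, which hold auxin responses in check, gave 1 lower and 1 higher gene of 20. Before adjustment, at p under 0.05, 1 was lower and 3 higher. DESeq2 called 1 lower and 2 higher, and limma voom 1 lower and 1 higher. Solyc03g120390.3 had 11.1, 12.3 and 13.9 CPM in iSB09 and 35.5, 31.7 and 26.8 in ABA, with -1.33 ± 0.13 (adjusted p = 0.000196). Solyc03g120500.4 had 39.9, 34.2 and 32.8 CPM in iSB09 and 22.2, 22.4 and 22.6 in ABA, with 0.67 ± 0.14 (adjusted p = 0.0158), a call lost without any single ABA library or iSB09 replicate 1 (0.000563 to 0.0672). Of 8 JAZ repressors of jasmonate signalling, 11 other jasmonate and wound genes, 11 gibberellin genes and 8 salicylate and defence genes, 0 were called in either direction with edgeR, DESeq2 or limma voom. Before adjustment, at p under 0.05, they gave 1 higher JAZ gene, 3 lower jasmonate and wound genes, 1 higher and 1 lower gibberellin gene and 0 defence genes. Omitting ABA replicate 3 or mock replicate 1 gave 1 lower gene of the jasmonate and wound list, and omitting iSB09 replicate 3 gave 1 lower defence gene.

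**Figure D4:**
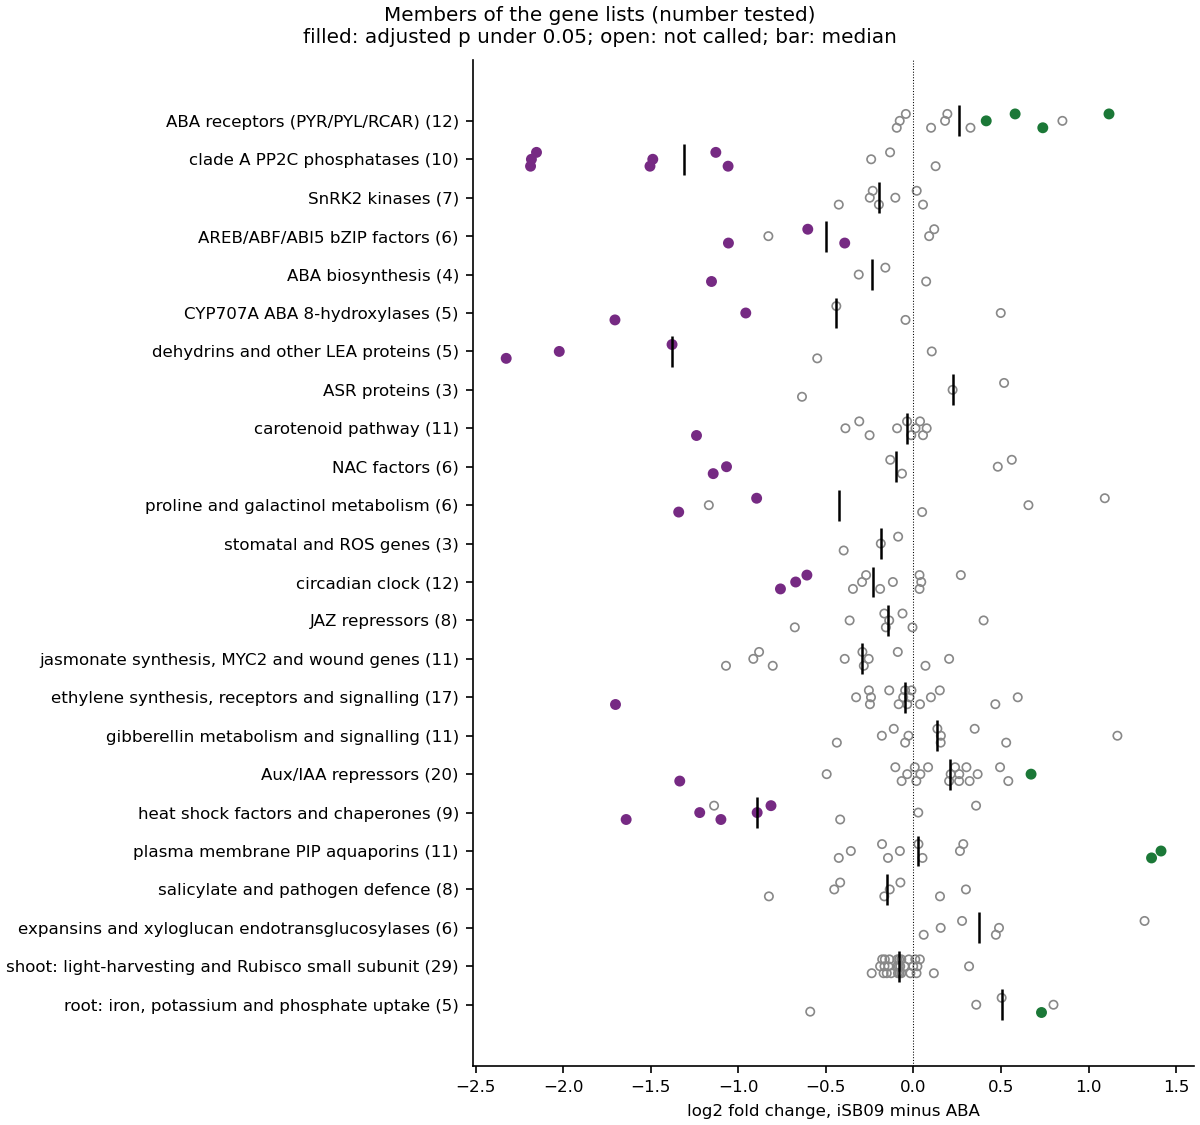
Log2 fold change of iSB09 minus ABA (x axis) for every tested member of 24 gene lists (rows, number tested in brackets); filled points were called at an adjusted p under 0.05, open points were not, and bars are medians. Called members lie left of 0 in the phosphatase, bZIP, LEA, clock and heat shock lists and right of 0 in the receptor, aquaporin and root uptake lists, and the 29 shoot genes lie between -0.24 and 0.32.

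Water channels and root uptake genes were among the groups with genes higher in iSB09. Of 11 tested PIP aquaporins, which carry water across the plasma membrane, 2 were higher (1.77% of all genes were) and 0 lower (2 before adjustment at p under 0.05, 0 by DESeq2 and 0 by limma voom). Solyc06g011350.3 was at 112, 147 and 76.7 CPM in mock, 57.6, 62.7 and 58.9 in iSB09 and 17.7, 22 and 27.6 in ABA, with 1.41 ± 0.22 for iSB09 against ABA (adjusted p = 0.00297). Solyc10g084120.2 had 51, 58.5 and 46.6 CPM in iSB09 and 16.8, 19 and 25 in ABA, with 1.36 ± 0.24 (adjusted p = 0.00713). Its mock libraries were at 105, 102 and 52.65 CPM, so mock replicate 3 lay within its iSB09 range. The iSB09 and ABA libraries were apart in both genes, and both calls held in all 17 alternatives. The list as a whole had a median of 0.03. Of 6 expansin and xyloglucan endotransglucosylase genes, which loosen cell walls, 0 were called (before adjustment 2 were higher and 0 lower at p under 0.05; 1 was higher by DESeq2 and 0 by limma voom).

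Genes of iron, potassium and phosphate uptake were set as markers of root tissue. Of 5 tested, 1 was higher in iSB09 than in ABA (1.77% of all genes were) and 0 lower (1 before adjustment at p under 0.05, 0 by DESeq2 and 0 by limma voom). The members did not all go 1 way: their log2 fold changes ran from -0.59 to 0.80, with a median of 0.50. Solyc12g006850.2 was at 29.6, 29 and 25 CPM in mock, 13.1, 14.9 and 14.1 in iSB09 and 8, 9.04 and 8.31 in ABA, with 0.73 ± 0.11 (adjusted p = 0.00251). Solyc12g005670.2 had 24.4, 14.6 and 19.3 CPM in iSB09 and 11.8, 12.1 and 9.65 in ABA and did not pass (0.80; adjusted p = 0.0671), but passed with DESeq2, with the 6 libraries alone and without mock replicate 1 or iSB09 replicate 2 (0.0105, 0.0384, 0.0264 and 0.0258), when 2 root genes were called. Summed over the 6 IDs in the table, root genes came to 236.6 to 316 CPM in mock, 123.3 to 173.5 in iSB09 and 100.3 to 113 in ABA. Solyc02g069200, with 17 counts, was not tested. Against mock, 4 of the 5 tested root genes fell in ABA (9.64% of all genes did) and 4 in iSB09 (2.33%). The sums follow the order mock, iSB09, ABA. So do the group means of the receptors Solyc10g085310.1, Solyc12g055990.2 and Solyc03g007310.3 and of the aquaporin Solyc06g011350.3. Of these genes, only Solyc10g085310.1 passed the order test. Not every receptor had that order: by group mean, Solyc08g076960.1 was lowest in iSB09 and Solyc01g095700.3 highest in iSB09. The part of root tissue in those values was not tested. Shoot markers, 29 genes of light harvesting and the Rubisco small subunit, gave 0 calls (0 before adjustment at p under 0.05, 0 by DESeq2 and 0 by limma voom) and a median of -0.08. Summed over 30 IDs they came to 54450 to 76640 CPM in mock, 56250 to 78510 in iSB09 and 57090 to 77660 in ABA.

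Outside the lists, the IDs with the largest fitted differences, at least 1 CPM in the higher arm and no overlap between ABA and iSB09 libraries were these. The first 3 passed the count filter only through the libraries of their higher arm. Solyc04g007585.1 had 3.73, 2.41 and 2.77 CPM in ABA and 0.044, 0.096 and 0.131 in iSB09, with 194 counts against 6 and a log2 fold change of -4.95 ± 0.43 (adjusted p = 0.000132). Mock held 3 counts. Solyc06g069260.1 had 68 counts in ABA and 3 in iSB09, a ratio of 23.1 (95% counting interval 7.57 to 115; adjusted p = 0.0036), with 4 counts in mock. At the other end, Solyc03g031590.4 had 0.133, 0.185 and 0.43 CPM in ABA, 2.48, 3.21 and 2.02 in iSB09 and 10.8, 6.22 and 4.94 in mock, with 3.35 ± 0.47 (adjusted p = 0.00169; 0.0446 for the order). Solyc03g093390.4 had the largest such difference, 5.55 ± 1.19 (adjusted p = 0.0188), but its iSB09 libraries were far apart, at 47.7, 1.92 and 7.27 CPM, against 0.355, 0.185 and 0.669 in ABA and 14.4 to 30.8 in mock. Its call was lost with limma voom and without any single ABA library (1.71e-05 to 0.252).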

How the data were processed

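The authors deposited 1 table of whole-number read counts per gene ID. FastQC, cutadapt, STAR and DESeq2 are named, without roles, per the submitters' processing notes. Libraries were strand-specific, per the labels' protocols. For the genome build, annotation, counter and counting strand, nothing is stated in the sources used, so reads of overlapping genes and near-identical family members (light-harvesting, heat shock, receptor and phosphatase genes among them) may be split between IDs. Columns were matched to samples by name; 3 columns that match no label were not used. Every pair of replicates differed by more than counting noise (chi-square over its degrees of freedom from 7.71 to 29.6), so each was counted as 1 sample.

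Genes with at least 10 counts in 3 of the 6 ABA and iSB09 libraries were tested with edgeR 4.0.16 (R 4.3.3) by the two-sided quasi-likelihood F test, with TMM factors and mock, ABA and iSB09 in 1 fit, so that the arms share an estimate of the spread. Adjusted p is Benjamini-Hochberg over all 21127 genes, and calls are under 0.05. CPM uses TMM-scaled library sizes. The SE comes from the F statistic, and intervals are 95%. Alternatives were median-of-ratios factors, library totals, other filters, DESeq2 1.42.0, limma 3.58.1 voom, a replicate block, the 6 libraries alone and leaving out each library. Scripts were tested on simulated counts. Named genes are up to 3 members of each ABA list with the smallest adjusted p, up to 2 called members of each other list, and 2 unlisted IDs per direction; other IDs in the text were picked after their values were seen. The lists, tests and genes were chosen with earlier results of these data known. A group total of 3 counts, the lowest level read, is 0.0452 to 0.0461 CPM; counting intervals cover counting error only.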

Additional observations from a re-analysis of the deposited data

How the results depend on the processing

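Over the 17 alternatives the direct comparison kept more lower than higher genes, with 24.6% to 34% of calls on the higher side against 29.9%. Leaving out 1 library gave 498 to 903 lower and 179 to 397 higher genes, 24 to 31 lower and 4 to 9 higher list members, 161 to 241 genes in the order mock, iSB09, ABA and 30 to 107 in the reverse order. DESeq2 called 1093 lower and 526 higher genes, 13 higher list members, and 382 and 166 genes in these orders. No gene was called above or below both arms in any alternative that included mock. Of 34 named genes called, 25 were called under every alternative that could be run for them. Among the 25 are 3 unlisted IDs for which no omission of a library of the higher arm could be run. The sign of Solyc08g016720.1 turned only without iSB09 replicate 3, among omissions of 1 library that gave -0.604 to 0.046. Omitting a library also lowers the number of samples, and the cause of these changes was not tested. Replicate numbers did not pair ABA with iSB09: deviations of same-numbered libraries had correlations of 0.0642, 0.0383 and -0.0781. Between mock and iSB09 the same-numbered values were -0.198, 0.000974 and 0.343. Across numbers they reached 0.406 for mock 1 with iSB09 2 and -0.375 for mock 3 with iSB09 2. The source of these mock and iSB09 correlations was not tested. With a replicate block 814 genes were lower and 343 higher. The count filter limits 3 of the unlisted IDs, Solyc04g007585.1, Solyc06g069260.1 and Solyc03g031590.4. Each passed it only through the 3 libraries of its higher arm, and omitting any of these libraries removed it. They had values in 14 of 17 alternatives.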
